A study of Homo sapiens with 2 samples.

Results

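The genes studied here encode the nuclear subunits of the respiratory chain complexes and of ATP synthase, with the assembly factors and other transcripts that share their names. The rule takes symbols and no measured value: every probe set with 1 annotated symbol that begins with NDUF (complex I), is SDHA, SDHB, SDHC or SDHD (complex II), begins with UQCR or is CYC1 (complex III), begins with COX4 to COX8 (complex IV) or begins with ATP5 (complex V). The rule found 91 genes on 174 probe sets, of 19775 genes with 1 symbol on the array. SDHB carried no probe set under the rule and was not analysed here, and the same holds for the core subunits NDUFS8 and UQCRFS1 and for the subunits encoded in mitochondrial DNA.

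The study compared L-428, an established Hodgkin lymphoma cell line, after transfection with pcDNA6.2-GW/EmGFP-miR-PRAME or with the control plasmid pcDNA6.2-GW/EmGFP-miR-neg. The first expresses an artificial microRNA against PRAME, a cancer testis antigen known to repress retinoic acid receptor signalling, and the second a microRNA without that target. Both plasmids also carry a green fluorescent protein, and per the methods stable transfectants were selected with blasticidin. The sources used here do not say whether the transfectants were pools or clones. The labels name L-428 for both samples and the file holds 54675 probe sets, although the design text of the series names the line L-540 and another array type. RNA of each condition was hybridised to 1 Affymetrix HG_U133PLUS2.0 array, so there is no replicate and no test is possible. The precision of every value is limited by the number of arrays. Values are MAS5 signals, linear intensities of a probe set, and each comparison is the log2 ratio of knock-down over control, from which the median over the 27307 probe sets above a signal filter (0.045) was subtracted. A negative log2 ratio therefore means a ratio of knock-down over control below that of the median probe set. A signal slightly higher in the knock-down can thus lie below 0, as for NDUFA11 (control 5575, knock-down 5694, log2 ratio -0.014).

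The respiratory chain sits in the inner mitochondrial membrane. Complex I takes electrons from NADH and complex II takes them from succinate, both pass them to ubiquinone, complex III hands them on to cytochrome c, and complex IV reduces oxygen. Complexes I, III and IV move protons across the membrane, and complex V, the ATP synthase, lets them flow back to make ATP. Most subunits are encoded in the nucleus, while a few that form the membrane core of complexes I, III, IV and V are made inside the mitochondrion.

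PRAME itself gave a signal of 2115 on the control array and 1251 on the knock-down array, which is 0.591 times the control signal before centring and a log2 ratio of -0.80 after it. Of 8 markers of Hodgkin and Reed-Sternberg cells 7 passed the signal filter, while CCL22 did not. Among the 7, CD40 (1850 and 1146) and FUT4 (1177 and 782) were at least 1.5-fold lower, TNFRSF8 gave 1893 and 1667 (-0.23) and IRF4 4633 and 5703 (0.25). All 3 T cell markers and all 3 monocyte markers lay under the filter. The B cell genes CD79A (178 and 332, at least 1.5-fold higher) and MS4A1 (95.9 and 135) passed it at low signals. Of all genes that passed the filter, 5.42% were at least 1.5-fold lower and 7.54% higher. The ratio of the 3' to the 5' probe set was 0.948 and 1.04 for GAPDH and 1.14 and 1.17 for ACTB, in the order control and knock-down. A lower signal in such bulk RNA can come from fewer cells of a kind or from less RNA per cell, which cannot be told apart.

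Respiratory chain genes differed little between the knock-down and the control cells. Of the 91 genes, 85 passed the filter (150 of 174 probe sets) and are called measured below, each by its brightest probe set. Their median signal was 4567 in the control and 4691 in the knock-down, and their median log2 ratio was 0.030, with 40 below and 45 above 0. The median over all 11794 genes measured was -0.0069, and 51.0% of them lay below 0. Only UQCRQ, an accessory subunit of complex III, was at least 1.5-fold lower, which is 1.18% of the 85 genes beside 5.42% of all genes measured. Another 3 were at least 1.5-fold higher, 3.53% beside 7.54% of all genes measured, namely NDUFV1-DT, COX6B2 and NDUFB2-AS1. None reached 2-fold. COX6B2 lay under the filter on the control array (72.3) and passed only through the knock-down array (147), so it had to come out higher.

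The 3 higher genes were faint. Among the 77 respiratory chain genes with a mean signal of at least 1000, 1 (1.30%) was at least 1.5-fold lower and 0 were higher, beside 4.55% and 1.76% of all genes as bright. These 77 had a median of 0.021 and an SD of 0.27 across genes. The 5090 other genes of that brightness had a median of -0.065 and an SD of 0.31. Of all genes as bright 59.6% lay below 0, beside 51.0% of all genes measured, so fainter genes lay higher in general. The median signal over all probe sets was 91.9 on the control array and 109.9 on the knock-down array. Counted by probe set, 7 of 150 were at least 1.5-fold lower and 7 higher, 4.67% each, beside 6.54% and 7.38% of all probe sets kept.

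**Figure D1:**
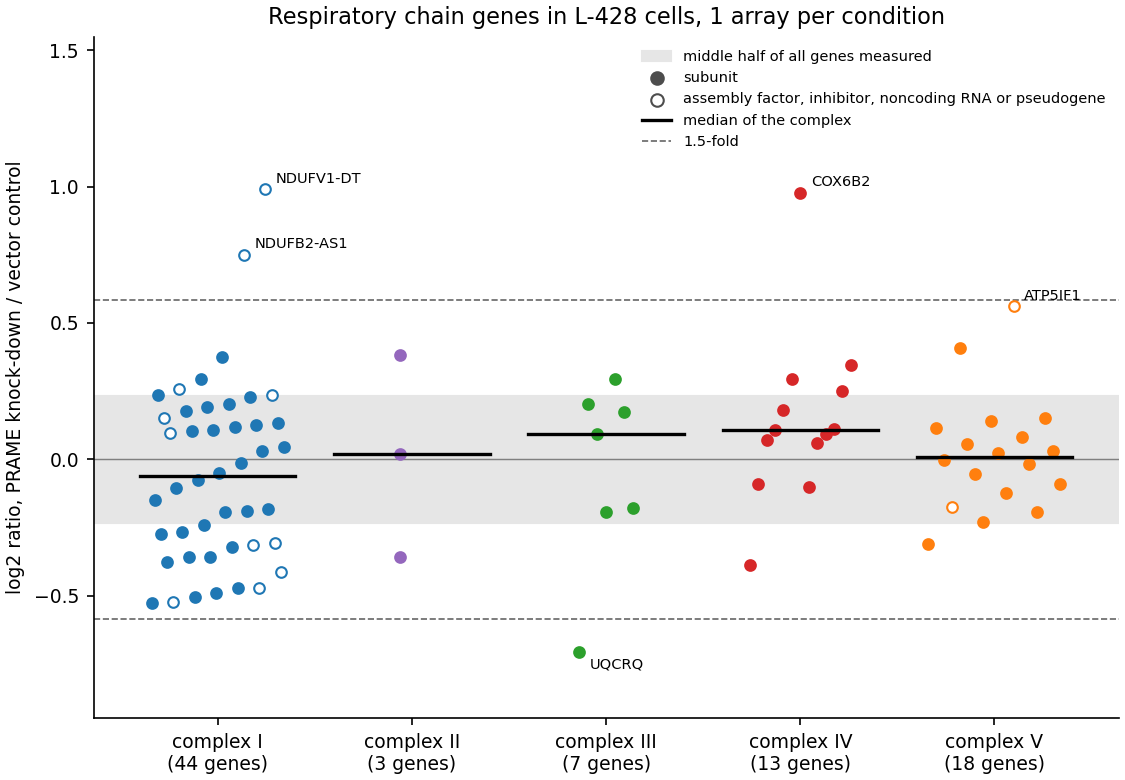
Log2 ratio of knock-down over vector control (y axis) for each of the 85 measured genes, by complex, with the median of each complex as a bar, the middle 50% of all genes measured as a grey band and 1.5-fold as broken lines. UQCRQ (-0.71) lies under the lower line, and NDUFV1-DT (0.99), COX6B2 (0.98) and NDUFB2-AS1 (0.75) lie over the upper line.

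The 5 complexes lay close to each other. The median log2 ratio was -0.063 for complex I (44 genes), 0.020 for complex II (3 genes), 0.091 for complex III (7 genes), 0.11 for complex IV (13 genes) and 0.0084 for complex V (18 genes). The lowest and the highest differed by 0.17. The middle 50% of genes ran from -0.32 to 0.16 in complex I, from -0.19 to 0.19 in complex III, from 0.059 to 0.25 in complex IV and from -0.12 to 0.11 in complex V, so these ranges overlapped. In complex IV 10 of 13 genes lay above 0, and in complex I 24 of 44 (54.5%) lay below it. The complex I share is near that of all genes measured (51.0% below 0) and of those with a mean signal of at least 1000 (59.6%). Complex I had the lowest median in 11 of 12 ways to process the values and complex IV the highest in 9. Complex II had the highest in 3, among them quantile normalization and subtraction of a loess curve of ratio against signal. With quantile normalization complex I lay at -0.017 and complex IV at 0.021. The complexes differed in brightness, with a median control signal of 2881 for complex I and 9582 for complex IV. The median stayed below 0 for complex I and above 0 for complex IV under each of 11 alternatives, but changed sign under 4 for complex V and under 1 each for complexes II and III.

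**Figure D2:**
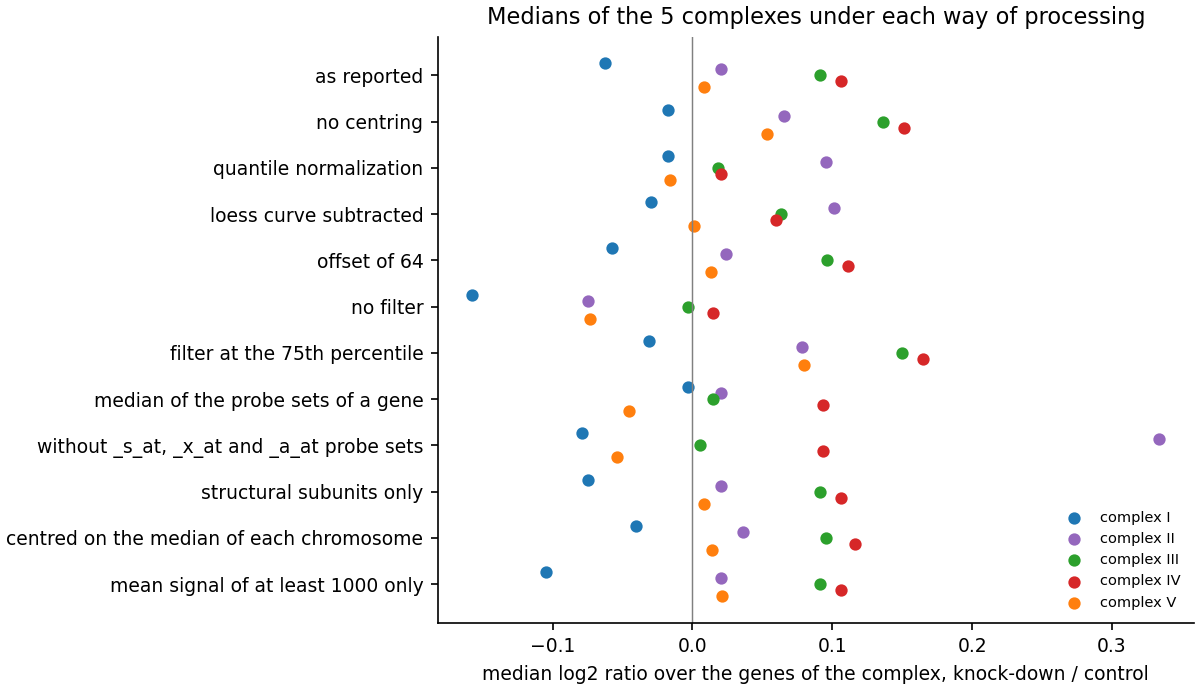
Median log2 ratio of knock-down over vector control (x axis) of each complex, 1 coloured point per complex, under the reported processing and each of 11 alternatives (rows). Complex I lies below 0 and complex IV above 0 in every row, and the complex II point at 0.33 rests on 2 genes.

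Within complex I the subunit families went apart. The 13 measured NDUFA genes, accessory subunits spread over both arms, had a median log2 ratio of -0.27, with 9 below and 4 above 0. The 11 NDUFB genes, accessory subunits of the membrane arm, had a median of 0.10, with 3 below and 8 above 0. The 8 NDUFS and NDUFV genes, which include the subunits that carry flavin and iron-sulphur clusters, had a median of -0.19, with 6 below 0. Beside these counts, 51.0% of all genes measured lay below 0, and 59.6% of those with a mean signal of at least 1000. Each family kept the sign of its median under the alternatives (-0.37 to -0.16 for NDUFA, 0.0093 to 0.17 for NDUFB and -0.29 to -0.12 for NDUFS and NDUFV). On the brightest probe set all of them lay within 1.5-fold.

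**Figure D3:**
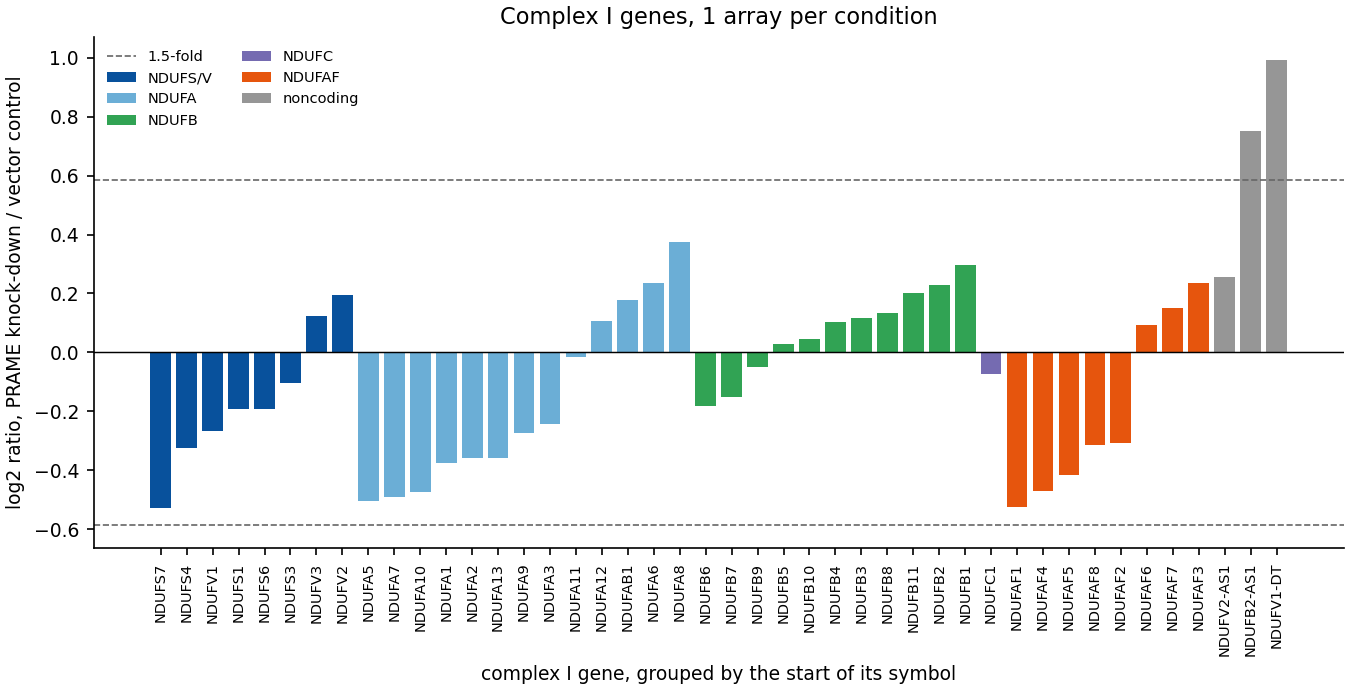
Log2 ratio of knock-down over vector control (y axis) for the measured genes of complex I, grouped by the start of the symbol, 1 bar per gene. Most NDUFA and NDUFAF bars and most bars of NDUFS and NDUFV as one group lie below 0. Most NDUFB bars and those of the 3 noncoding transcripts lie above it.

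Among the core subunits, NDUFS7, which holds the iron-sulphur cluster next to ubiquinone, gave 1600 in the control and 1144 in the knock-down (log2 ratio -0.53), the lowest value in complex I. NDUFS3, a neighbour of it in the peripheral arm, gave 1842 and 1767 (-0.10). NDUFV1, which binds NADH and flavin, gave 2069 and 1776 (-0.27). These 3 lay below 0, as did NDUFS1, the largest subunit of the peripheral arm, with 3618 and 3265 (-0.19). NDUFV2, which carries an iron-sulphur cluster beside NDUFV1, was the core subunit above 0, with 2543 and 3000 (0.19).

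The accessory subunits reached similar sizes in both directions. NDUFA5 gave 6805 and 4950 (-0.50), but its other probe set gave 157 and 173 (0.096). NDUFA7 gave 2139 and 1571 (-0.49), and its other probe set 264 and 306 (0.17). NDUFA10 gave 3747 and 2785 (-0.47), and its 2 fainter probe sets lay at 0.18 and -0.095. In these 3 genes the brightest probe set was low and a faint one was not, while fainter genes lay higher in general. NDUFA13, also known as GRIM-19 and described as a cell death regulator, gave 4567 and 3675 (-0.36). NDUFA8 was the highest subunit of complex I, with 1430 and 1912 (0.37). NDUFB1 followed with 5590 and 7079 (0.30), and its other probe set lay at 0.41. The NDUFB genes spanned -0.18 to 0.30.

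The 8 NDUFAF genes encode factors that build complex I and are not part of it. Their median was -0.31 and ran from -0.41 to -0.19 over 10 alternatives. They had 5 genes below and 3 above 0 (62.5% below), beside 59.6% below among all genes with a mean signal of at least 1000. NDUFAF1, an early factor of the membrane arm, gave 1220 and 875 (-0.52). NDUFAF4 gave 4241 and 3158 (-0.47), and its second probe set gave 981 and 660 (-0.62). NDUFAF5, a hydroxylase that modifies NDUFS7, gave 1313 and 1016 (-0.41) and, on a second probe set, 1245 and 819 (-0.65). In NDUFAF4 and NDUFAF5 both probe sets lay below 0, and the fainter one was past 1.5-fold. NDUFAF7, a methyltransferase that modifies a core subunit, went the other way, with 1048 and 1201 (0.15) on its brightest probe set. Its fainter ones gave 205 and 308 (0.55) and 169 and 363 (1.05).

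The 3 noncoding transcripts with an NDUF name were all above 0 and all faint, and fainter genes lay higher in general. NDUFV1-DT gave 119 and 243 (0.99), NDUFB2-AS1 gave 108 and 187 (0.75) and NDUFV2-AS1 gave 124 and 152 (0.26). The coding partners had log2 ratios of -0.27 (NDUFV1), 0.23 (NDUFB2) and 0.19 (NDUFV2). NDUFV1-DT is a divergent transcript, and in the RefSeq table its start lies 230 bases from that of NDUFV1 on the other strand. The 250 bases before the start of NDUFV1 are printed because they span the interval between this pair, whose signals differed in opposite directions. The run is from RefSeq, build GRCh38.p14, 5′ to 3′ on the strand of NDUFV1, and has no capitals because it held none of the 3 motifs searched.
NDUFV1, chr11:67606686-67606935, plus strand: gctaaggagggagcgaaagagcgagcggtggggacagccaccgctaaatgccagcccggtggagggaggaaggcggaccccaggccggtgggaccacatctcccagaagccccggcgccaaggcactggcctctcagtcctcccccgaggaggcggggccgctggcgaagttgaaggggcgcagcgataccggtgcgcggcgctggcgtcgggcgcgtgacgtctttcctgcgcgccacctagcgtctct

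Complex II, succinate dehydrogenase, also belongs to the TCA cycle. SDHA, its flavoprotein, gave 1706 and 1372 (-0.36). The membrane anchors SDHC and SDHD gave 2426 and 3260 (0.38) and 3051 and 3192 (0.020). The SDHA probe set is of the _x_at kind, whose probes can also match related sequences, and the 6 SDHC probe sets ran from -0.064 to 0.65. Among them an _x_at probe set nearly as bright as the one used gave 2581 and 2617 (-0.025).

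In complex III, UQCRQ gave 7838 in the control and 4959 in the knock-down, a log2 ratio of -0.71 or 1.63-fold lower. It encodes a small accessory subunit next to the cytochrome b that mitochondria make themselves, and has 1 probe set. The other accessory subunits were UQCR11 with 6446 and 5818 (-0.19), UQCRB with 14585 and 16988 (0.17) and UQCR10 with 8454 and 10701 (0.30). Another UQCRB probe set, nearly as bright, gave 15004 and 15748 (0.025). Of the core, UQCRC1 gave 2751 and 2508 (-0.18), UQCRC2 gave 7420 and 8802 (0.20) and CYC1, the cytochrome that passes electrons to cytochrome c, gave 11357 and 12483 (0.091). Thus 3 of 7 genes lay below 0, with UQCRQ far under the other two. The 250 bases before the UQCRQ start are printed because this is the only respiratory chain gene past 1.5-fold at a high signal. The capitals mark CCGGAAG, a letter string bound by ETS family factors such as GABP.
UQCRQ, chr5:132866392-132866641, plus strand: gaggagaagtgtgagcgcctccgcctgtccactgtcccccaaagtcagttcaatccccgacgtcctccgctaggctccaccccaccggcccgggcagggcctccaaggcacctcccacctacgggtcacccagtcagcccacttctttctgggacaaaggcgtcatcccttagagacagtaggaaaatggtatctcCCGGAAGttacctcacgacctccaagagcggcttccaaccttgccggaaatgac

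Complex IV held the highest median under the reported processing. Its widely expressed nuclear subunits lay above 0 in 9 of 11 genes on the brightest probe set. COX7B gave 9633 and 12624 (0.34) on the brighter of its 2 probe sets. COX4I1, the largest nuclear subunit, gave 11735 and 14835 (0.29), COX6A1 7985 and 9789 (0.25) and COX7A2L, a factor that joins complexes III and IV, 8706 and 10190 (0.18). COX5A, COX5B, COX6C, COX7A2 and COX8A lay between 0.059 and 0.11. For COX5B another bright probe set gave 7680 and 6277 (-0.34), and the median of its 4 probe sets was -0.028. COX6B1 with 4163 and 4005 (-0.10) and COX7C with 9582 and 9280 (-0.091) lay below 0.

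The tissue-restricted isoforms were faint on both arrays. COX6B2, the testis form of COX6B1, gave 72.3 and 147 (0.98), and with 64 signal units added to both arrays its log2 ratio was 0.59. COX4I2, the lung form of COX4I1, gave 168 and 132.5 (-0.39). COX6A2 (73.4 and 57.9), COX7A1 (6.16 and 2.93), COX7B2 (10.5 and 40.6) and COX8C (28.4 and 65.8) did not pass, nor did COX6A1P1 and, in complex V, ATP5MF. No ratio is given for these 6 genes.

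In complex V 9 of 18 genes lay on each side of 0. The catalytic head is a ring of ATP5F1A and ATP5F1B around a central stalk of ATP5F1C, ATP5F1D and ATP5F1E. ATP5F1A gave 14470 and 15249 (0.031), ATP5F1B 14118 and 16072 (0.14) and ATP5F1C 10049 and 10522 (0.021), while ATP5F1D gave 1284 and 1068 (-0.31) and ATP5F1E 13926 and 13195 (-0.12). The second probe set of ATP5F1D gave 560.3 and 341 (-0.76). The 3 genes of the proton-driven c ring, which encode the same mature protein, all lay above 0 on the brightest probe set: ATP5MC1 gave 1300 and 1779 (0.41), ATP5MC2 9078 and 10154 (0.12) and ATP5MC3 11358 and 13001 (0.15). Another probe set of ATP5MC3, nearly as bright, gave 10686 and 10477 (-0.074), and with the median of its probe sets this gene lay below 0. The 8 stalk and other membrane subunits had a median of -0.036, and the lowest was ATP5PO, which links head and stator, with 10330 and 9096 (-0.23) on one probe set and 2938 and 1881 (-0.69) on the other. ATP5IF1, the inhibitor of ATP hydrolysis by the synthase, had the highest ratio of the complex with 6465 and 9852 (0.56, or 1.48-fold). Its 3 probe sets lay at 0.25, 0.42 and 0.56.

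Different probe sets of a gene often did not give the same answer, and the gene values above rest on the brightest. Of 41 respiratory chain genes with at least 2 probe sets measured, 21 had all of them on one side of 0 (8 below, 13 above), 51.2% beside 49.5% of 5840 such genes in all. The SD between probe sets of a gene was 0.31, beside 0.33 over all genes. The widest were COX4I1, NDUFS1 and NDUFAF7, with ranges of 1.54, 0.998 and 0.90. In COX4I1 the faintest probe set, with 299.5 and 129.8, gave -1.25 where the others gave 0.29 and 0.23. In NDUFS1 a faint probe set with 135 and 243 gave 0.80 where the brightest gave -0.19. No respiratory chain gene with several probe sets was past 1.5-fold in all of them. Such genes were also rare on the whole array, with 54 lower and 52 higher of the 5840.

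**Figure D4:**
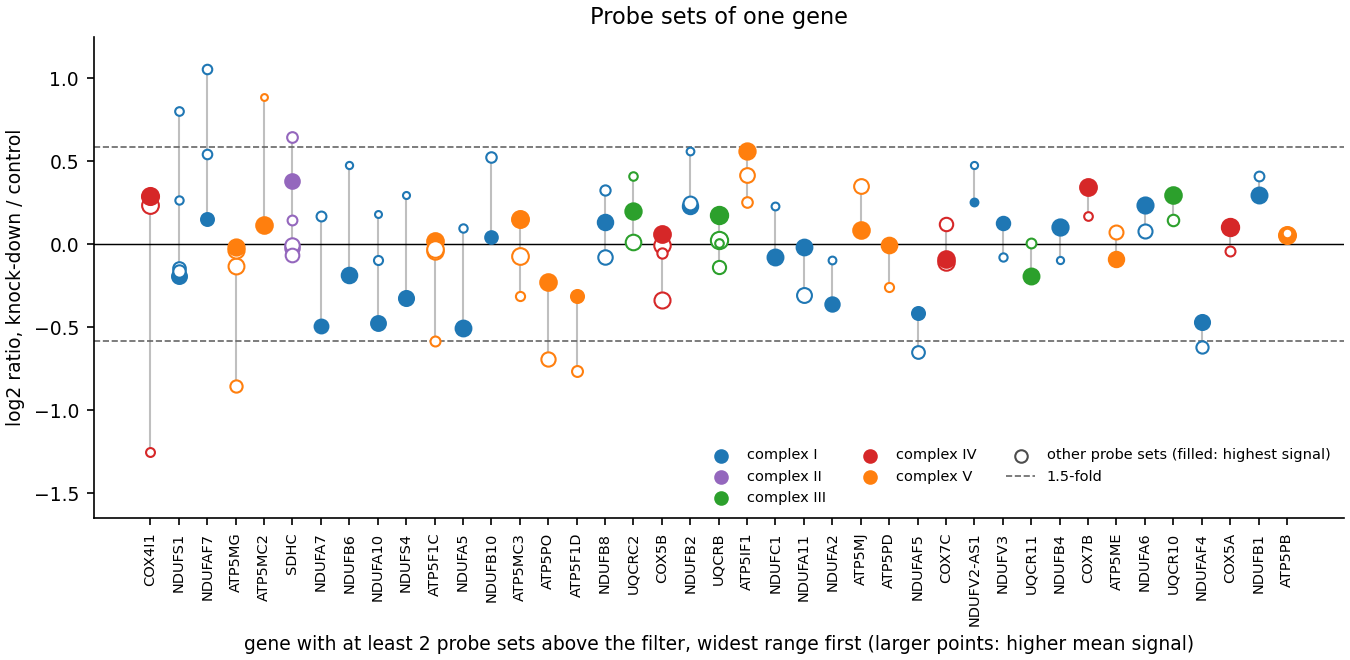
Log2 ratio of knock-down over vector control (y axis) for each measured probe set of the respiratory chain genes that have at least 2, 1 column per gene. In 20 of the 41 genes the probe sets lie on both sides of 0, with the widest spread in COX4I1.

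Position in the genome went with some of these differences. All 7 measured genes on chromosome 5 lay below 0 (UQCRQ, NDUFA2, SDHA, NDUFS4, NDUFAF2, NDUFS6 and COX7C), with a median of -0.32. The median of all 525 genes measured on that chromosome was -0.16, and 69.5% of them lay below 0. On chromosome 19, 9 of 10 genes lay below 0 with a median of -0.22, COX6B2 being the exception, while the 759 genes there had a median of -0.023. On chromosome 18 ATP5F1A, NDUFV2 and NDUFV2-AS1 lay above 0 (median 0.19), whereas the 170 genes there had a median of -0.31. With every gene centred on its chromosome, UQCRQ was at -0.55 and no longer past 1.5-fold.

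**Figure D5:**
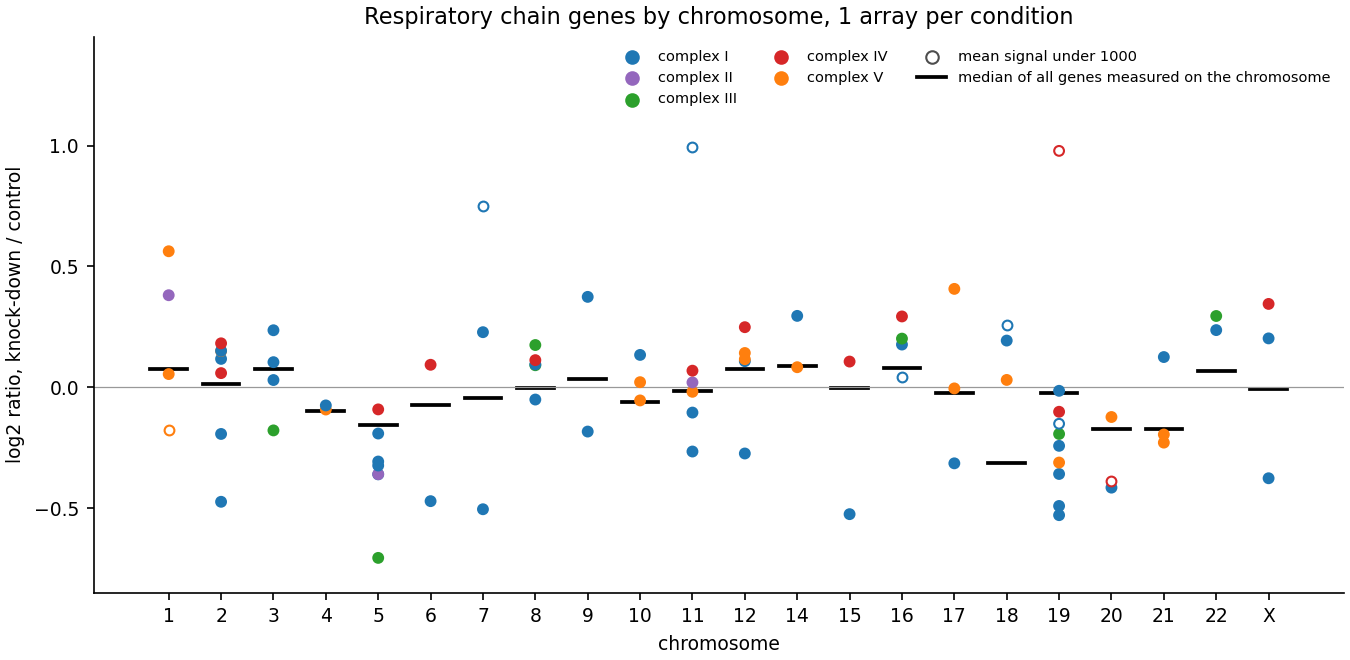
Log2 ratio of knock-down over vector control (y axis) of each measured respiratory chain gene, by chromosome (x axis). A bar gives the median of all genes measured on the chromosome, and open points have a mean signal under 1000. On chromosome 5 every point lies below 0 (median -0.32) and the bar is at -0.16. On chromosome 18 the bar is at -0.31 and the points lie above 0 (median 0.19).

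The same was described with the 10 nearest measured genes on each side. Across the 85 genes the log2 ratio and the median of these neighbours had a Pearson r of 0.34 and a Spearman rho of 0.39, and 56 of 85 had the sign of their neighbours. Over the 77 brighter genes r was 0.51 and rho 0.49. Genes share neighbours and arrays, so these are descriptions across genes and not replicated relations. The same values were not computed over all genes measured, so they cannot be called particular to respiratory chain genes. Some neighbours were respiratory chain genes themselves, such as NDUFB2-AS1 beside NDUFB2. The 20 neighbours of UQCRQ had a median of -0.37, with 15 below 0, and those of NDUFA8 a median of 0.30, with 1 below 0. SDHA was -0.36 while its 11 neighbours had a median of 0.0096. Copy number was not measured here, and its part in these values was not tested.

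Other genes of oxidative phosphorylation were counted the same way. Of all genes measured 51.0% lay below 0, and of those with a mean signal of at least 1000 59.6% did (median -0.064). In the TCA cycle 10 of 11 genes measured lay below 0 (median -0.12), and none was past 1.5-fold. The lowest was IDH3B, a subunit of isocitrate dehydrogenase, with 2873 and 2075 (-0.51). Of 76 genes with a mitochondrial ribosomal protein symbol, 52 lay below 0 (median -0.084), 1 was at least 1.5-fold lower (MRPS10, -0.67) and 4 were higher, beside 5.42% and 7.54% of all genes measured. The 4 were MRPL33 with 1882 and 6784 (1.805, or 3.49-fold), MRPL46 (0.60), MRPS11 (0.79) and the noncoding antisense transcript MRPL20-AS1 (0.79). Of 22 complex IV assembly genes 14 lay below 0 (median -0.028). PET117 (-0.72) was past 1.5-fold downwards, and COA5 (0.78) and COX16 (0.73) upwards. Among 12 genes for cytochrome c and ubiquinone synthesis 6 lay below 0 and COQ3 (-0.63) was past 1.5-fold downwards. Beside these calls in both lists stand the same shares of all genes measured, 5.42% lower and 7.54% higher.

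Assembly genes of the other complexes were few. The medians were 0.24 for complex II (4 genes), -0.022 for complex III (5 genes) and 0.13 for complex V (5 genes). Complex I beyond the NDUFAF family (7 genes) had 0.023. Of these genes ATPAF1, which helps to build the head of ATP synthase, was past 1.5-fold with 208 and 386 (0.85). Over all genes measured 7.54% were at least 1.5-fold higher. Of 6 other enzymes that feed electrons to ubiquinone 5 lay below 0 (median -0.14), and the 3 carriers of ADP, ATP and phosphate had a median of 0.13. None of 13 transcriptional regulators of mitochondrial genes was past 1.5-fold (median -0.077). TFAM, which packs mitochondrial DNA and helps to start its transcription, lay at -0.40. PPARGC1B lay at -0.53, NRF1 at -0.077, GABPA at 0.23 and YY1 at 0.22.

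The promoters of respiratory chain genes are known for sites of ETS family factors, NRF1 and YY1. The RefSeq table (GRCh38.p14) held 76 of the 91 promoters, each with 250 bases before and 50 after the start, and both strands were searched for CCGGAAG (ETS family), GCATGCGC (NRF1) and AAGATGGCG (YY1). CCGGAAG stood in 20 of 76 (26.3%), beside 10.6% of 27305 promoters and 13.99% of 15842 promoters of coding genes. GCATGCGC stood in 13 (17.1%), beside 3.21% and 4.14%. AAGATGGCG stood in 9 (11.8%), beside 1.81% and 2.66%.

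Genes with the CCGGAAG letters had a median log2 ratio of -0.096 (14 of 20 below 0), and the 53 without them 0.093. Over all genes measured the medians were -0.056 with these letters (1863 genes) and -0.0056 without. With GCATGCGC the medians were 0.020 (13 genes) and 0.013 without. With AAGATGGCG they were -0.27 (7 of 9 below 0) and 0.037 without. Over all genes measured, those with AAGATGGCG had a median of -0.074 (377 genes) and those without -0.012. The 9 genes with the letters were NDUFS7, NDUFA7, NDUFS4, NDUFA9, NDUFAF8, UQCRC1 and ATP5PF below 0 and NDUFA6 and NDUFB8 above it. In all of them but ATP5PF (position -207) the match lay after the start, within the transcribed sequence, with its first base at positions 11 to 26. A match of letters is not a site shown to be bound, and genes are not replicates. Windows of 30 bases around the match are printed for 7 of the 9, to show the match and its flanks in genes on either side of 0: the first 5 belong to genes below 0, and the last ones to NDUFB8 and NDUFA6, which gave 0.13 and 0.24. They run 5′ to 3′ on the strand of the gene, in GRCh38.p14, and the capitals mark AAGATGGCG.
NDUFS7, chr19:1383914-1383943, plus strand: ggccgaggccAAGATGGCGgtgctgtcagg
NDUFA7, chr19:8321342-8321371, minus strand: tcgcggacggAAGATGGCGtccgccacccg
NDUFS4, chr5:53560650-53560679, plus strand: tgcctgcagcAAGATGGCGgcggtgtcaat
NDUFA9, chr12:4649114-4649143, plus strand: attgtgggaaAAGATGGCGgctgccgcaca
UQCRC1, chr3:48609604-48609633, minus strand: ctgcagctggAAGATGGCGgcgtccgtggt
NDUFB8, chr10:100529835-100529864, minus strand: gaagaaggtgAAGATGGCGgtggccagggc
NDUFA6, chr22:42090728-42090757, minus strand: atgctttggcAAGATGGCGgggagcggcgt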

How the data were processed

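Total RNA of L-428 cells with the control or the PRAME plasmid was hybridised to 1 array each. The authors derived MAS5 signals, linear intensity values per probe set, with Affymetrix Expression Console 1.1, and deposited them scaled so that the 2% trimmed mean was 500.1 on both arrays. MAS5 is noisy at low signal, so probe sets under the median mean signal of 97.7 were left out. Probe sets were named from the platform annotation: 41097 had 1 symbol, 1801 several and 11777 none, and those with several or none were not used as genes. The log2 ratio was centred on the median of the probe sets kept, and a gene was taken as its brightest one. A gene was called at 1.5-fold. Genes named were the 3 lowest and 3 highest of complexes I, III, IV and V, every complex II gene, every gene called, core subunits, isoform pairs, ATP5IF1 and the genes whose probe sets differed most, and others are given as examples chosen after their values were seen. The members and lists were chosen with earlier results of these data known. The calculation was tested on simulated data. Python 3.11.15, pandas 2.3.3 and statsmodels 0.14.6 were used. Alternatives were 9 planned and 2 added after seeing the data (centring by chromosome, and signals of at least 1000 only).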

Additional observations from a re-analysis of the deposited data

How the results depend on the processing

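No paired analysis was possible because each condition has 1 array. Over 11 alternatives the median log2 ratio ran from -0.16 to -0.0035 for complex I, -0.075 to 0.33 for complex II, -0.0034 to 0.15 for complex III, 0.015 to 0.16 for complex IV, -0.074 to 0.080 for complex V and -0.064 to 0.084 for all 85 respiratory chain genes. The 0.33 is from 2 genes, without probe sets of the _s_at, _x_at and _a_at kinds. The count of genes at least 1.5-fold lower, 1 as reported, was 6 of 91 with no signal filter, 3 of 64 without those probe sets and 0 with centring by chromosome. The count at least 1.5-fold higher, 3 as reported, was 6 with no signal filter, 1 of 78 with a filter at the 75th percentile, 1 of 72 with structural subunits only and 0 with signals of at least 1000 only. Without a filter 11.8% and 17.6% of all genes were past 1.5-fold lower and higher. UQCRQ ran from -0.80 to -0.55, COX6B2 from 0.59 to 1.02 and ATP5IF1 from 0.25 to 0.62. COX4I1 was -1.25 without those probe sets, where 1 faint one was left. Of the 42 genes given by the naming rule, 30 kept their sign under each alternative that gave them a value and 12 did not. The cause of these shifts was not tested, beyond the fewer or more genes that a filter leaves. Without replicates, the variation between cultures or arrays cannot be estimated. The spread between probe sets of a gene comes from the same arrays and does not measure it.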
